A study of Arabidopsis thaliana with 6 samples.

Results

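Phenylpropanoid metabolism in plants opens with a shared set of reactions. Phenylalanine ammonia-lyase (PAL) removes ammonia from phenylalanine to give cinnamate, cinnamate 4-hydroxylase (C4H) adds a hydroxyl group to give p-coumarate, and 4-coumarate:CoA ligase (4CL) joins that acid to coenzyme A. The p-coumaroyl-CoA formed feeds the branches to lignin, sinapate esters and flavonoids, and in seedlings these steps are known to respond to light. The genes described here are PAL1 to PAL4, the single C4H gene and 4CL1, 4CL2, 4CL3 and 4CL5 of *Arabidopsis thaliana*. They are set by locus identifier, with no threshold on their values, and make up 9 of the 33602 loci listed in each deposited table.

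Transcripts were measured in whole seedlings labelled bbx4-1, a mutant line named for the B-box zinc finger gene BBX4, and in wild-type seedlings of the same accession, Col. Both genotypes were 4 days old and had been kept at 22 °C under continuous red light. The authors pooled 3 biological replicates per genotype into a single column of FPKM, a fragment count scaled to transcript length and sequencing depth. The labels do not say where the bbx4-1 lesion lies or what it is.

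BBX4 itself went against the label. It stood at 1095.7 FPKM in the column labelled bbx4-1 and at 88.97 FPKM in the wild-type column, which is 12.3-fold higher, so higher and lower are said here of the column with that label, and not of a loss of BBX4 transcript. Single fragments on short transfer RNA genes put the combined depth at roughly 49.8 M fragments for the column labelled bbx4-1 and 48.1 M for the wild-type column. With 1 combined column a genotype, no difference has a replicate check, no test was possible, and the 95% intervals cover counting error only. The seedling tissue carried its markers, with the leaf gene RBCS1A at 17123.05 FPKM in the column labelled bbx4-1 and 17575.14 FPKM in wild-type. Of the 4 flower and anther markers, AP1 was listed at 0 in both columns and none of the others exceeded 0.12 FPKM. Whole seedlings mix cell types, so fewer cells of a type and less RNA per cell cannot be told apart.

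The 9 genes have distinct coding sequences, shown first for the stretch that encodes the Ala-Ser-Gly triad, from which PAL builds its catalytic group. The triad codons are in capitals, read 5′ to 3′ along the coding strand of TAIR10.1.
PAL1: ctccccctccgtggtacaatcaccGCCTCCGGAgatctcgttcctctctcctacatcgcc
PAL2: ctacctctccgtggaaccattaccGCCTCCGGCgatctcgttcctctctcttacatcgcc
PAL3: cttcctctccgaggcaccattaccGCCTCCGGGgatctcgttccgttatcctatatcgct
PAL4: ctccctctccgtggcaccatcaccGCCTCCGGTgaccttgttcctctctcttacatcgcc
Over these 60 bases, PAL2 and PAL4 each differed from PAL1 at 7 positions and PAL3 at 12, and within the capitals each differed from PAL1 at 1. Over the whole coding sequence, PAL1 and PAL2 were 84.0% identical and PAL3 and PAL4 78.9%, against 69.9% to 73.5% for the other PAL pairs.

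The same comparison for the 4CL genes uses the stretch that encodes the nucleotide-binding motif shared by AMP-forming ligases, whose codons are in capitals.
4CL1: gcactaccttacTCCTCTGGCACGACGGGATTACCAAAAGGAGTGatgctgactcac
4CL2: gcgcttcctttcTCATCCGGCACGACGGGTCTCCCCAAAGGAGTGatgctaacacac
4CL3: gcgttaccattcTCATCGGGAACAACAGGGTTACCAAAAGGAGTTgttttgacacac
4CL5: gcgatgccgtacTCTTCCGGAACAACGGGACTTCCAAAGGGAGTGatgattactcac
Over these 57 bases, 4CL2 differed from 4CL1 at 11 positions, 4CL5 at 13 and 4CL3 at 15. Over the whole coding sequence 4CL1 and 4CL2 were 81.6% identical, and 4CL3 was the most distant, at 66.8% to 68.5% from the other three. These differences bear on how well short reads could be assigned. No 100-base window of any of the 9 spliced transcripts occurred elsewhere in the genome or in another of the 9, and of 50-base windows only those of PAL1 and PAL2 did, 31 from each transcript, or 1.08% and 1.09% of their windows. The labels state neither the read length nor how reads with several matches were treated.

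All 9 genes were expressed above the minimum used here, a mean of 1 FPKM over both columns. None differed 2-fold on the log2(FPKM + 1) scale, where 0.148% of the 18931 loci above that minimum did (0.106% higher and 0.0423% lower). Of the 9, 6 had log2 ratios above 0, as did 59.1% of those loci. A difference of 1.2-fold or more was reached by PAL1, PAL2 and 4CL3, all upwards, which is 3 of 9 where 9.25% of the loci reached it in either direction (5.15% higher and 4.11% lower). After TMM rescaling PAL1 fell barely short of it, which left 2 of 9. Its log2 ratio was then 0.263, and the threshold in log2 is 0.263 at the same rounding. By more than the 95% counting interval, PAL1, PAL2, PAL4, C4H and 4CL3 were higher and PAL3, 4CL2 and 4CL5 lower, while 4CL1 was neither. Across the 18741 loci above the minimum that have an annotated length, 36.9% passed that margin, 24.1% higher and 12.8% lower, so passing it is common in these columns. These shares are not matched to level, and the interval is narrower for abundant genes. Over the 9470 loci with a mean of at least 10 FPKM, the SD of log2 ratios was 0.161. The root mean square counting SE of those loci was 0.047, so counts past the interval cannot be read as an excess. The median log2 ratio of the 9 genes was 0.18, beside 0.03 for all loci above the minimum.

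**Figure D1:**
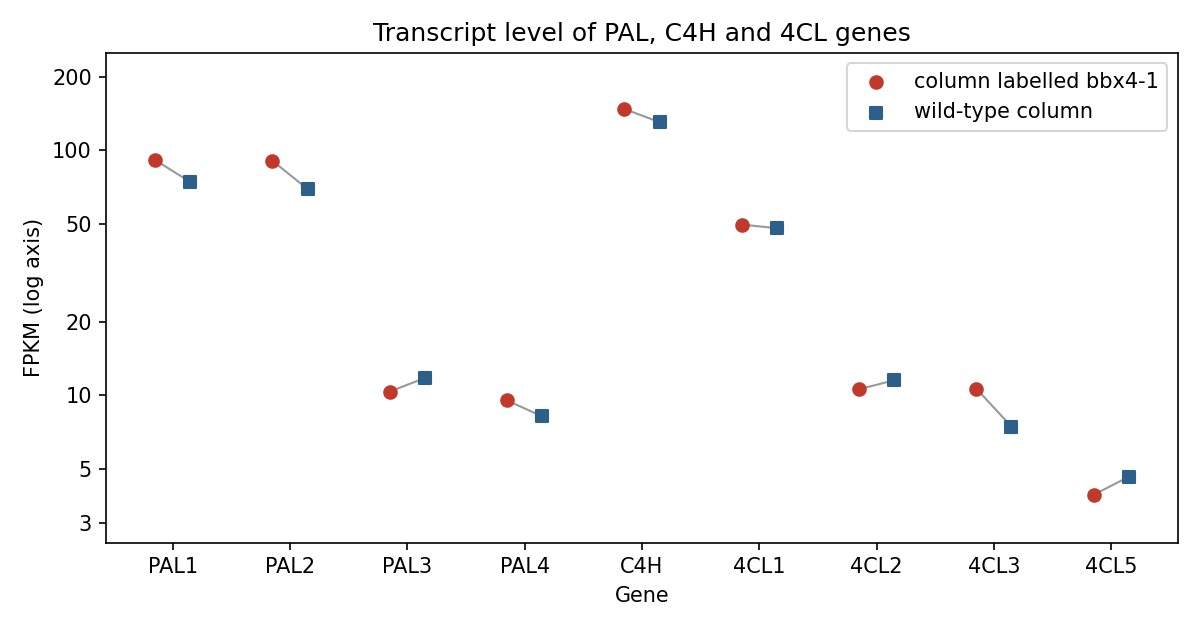
Level of each gene in FPKM on a log axis, with circles for the column labelled bbx4-1 and squares for the wild-type column, 1 combined value each. C4H, PAL1, PAL2 and 4CL1 lie between 48.11 and 147.61 FPKM and the other 5 genes between 3.92 and 11.75 FPKM.

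PAL1 and PAL2, the abundant ammonia-lyase genes, were both higher and stood at nearly the same level. PAL1 (AT2G37040, chromosome 2, 15557367 to 15560755, reverse strand, 2 exons) had 91.34 FPKM in the column labelled bbx4-1 and 74.32 FPKM in wild-type. PAL2 (AT3G53260, chromosome 3, 19744018 to 19747114, reverse strand, 2 exons) had 90.78 FPKM in the column labelled bbx4-1 and 69.51 FPKM in wild-type. The ratio was 1.23 for PAL1 (counting interval 1.198 to 1.261) and 1.31 for PAL2 (1.272 to 1.341). On the log2(FPKM + 1) scale these are differences of 0.29 (SE 0.019) and 0.38 (SE 0.019), which 3.90% and 1.98% of all loci above the minimum equalled or exceeded. PAL1 lay within the central 95% of those loci, which ran from −0.33 to 0.35, and PAL2 above it.

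PAL3 and PAL4, the scarcer pair, went in opposite directions. PAL3 (AT5G04230, chromosome 5, 1160569 to 1163957, forward strand, 3 exons) had 10.35 FPKM in the column labelled bbx4-1 and 11.75 FPKM in wild-type, a log2 ratio of −0.17 (SE 0.050). PAL4 (AT3G10340, chromosome 3, 3203988 to 3208135, forward strand, 3 exons) had 9.52 FPKM in the column labelled bbx4-1 and 8.19 FPKM in wild-type, a log2 ratio of 0.20 (SE 0.054). PAL3 was thus the only ammonia-lyase gene listed lower in the column labelled bbx4-1. Its log2 ratio lay 0.46 below that of PAL1 (interval 0.36 to 0.57) and 0.55 below that of PAL2 (0.44 to 0.65). Of the 6 pairs of PAL genes, 5 differed in log2 ratio by more than counting error, and PAL1 and PAL4 did not, with a difference of 0.10 (interval −0.01 to 0.21). How often other pairs of loci differ by that margin was not counted, so this number is not particular to PAL genes. In the level order, PAL1 and PAL2 stood at a PAL2 to PAL1 ratio of 0.994 in the column labelled bbx4-1 and 0.935 in wild-type. PAL4 stood below PAL3 in both columns, at a PAL4 to PAL3 ratio of 0.92 in the column labelled bbx4-1 and 0.697 in wild-type.

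C4H, a cytochrome P450 (CYP73A5) of the endoplasmic reticulum and the only gene for its step, was the most abundant of the 9. It lies on chromosome 2, 12993625 to 12996012, on the reverse strand, with 3 exons (AT2G30490). It had 147.61 FPKM in the column labelled bbx4-1 and 130.53 FPKM in wild-type, a ratio of 1.13 (counting interval 1.11 to 1.16) and a log2 ratio of 0.18 (SE 0.017). Of all loci above the minimum, 12.1% had a log2 ratio at least as high. Among 26712 nuclear protein-coding loci it ranked 715th in the column labelled bbx4-1 and 791st in wild-type.

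4CL1, the main ligase gene by level, differed little between the columns. 4CL1 (AT1G51680, chromosome 1, 19158746 to 19161737, reverse strand, 4 exons) had 49.8 FPKM in the column labelled bbx4-1 and 48.11 FPKM in wild-type, a log2 ratio of 0.05 (counting interval −0.001 to 0.099). 4CL2 (AT3G21240, chromosome 3, 7454269 to 7457404, reverse strand, 4 exons), its closest relative by coding sequence, had 10.57 FPKM in the column labelled bbx4-1 and 11.51 FPKM in wild-type, a log2 ratio of −0.11 (SE 0.056, counting interval −0.222 to −0.004). The intervals of 4CL1 and 4CL2 both have an end close to 0, so their calls differ by little. 4CL5 (AT3G21230, chromosome 3, 7448040 to 7452106, reverse strand, 5 exons) is the neighbour of 4CL2, 2162 bp away on the same strand. It was the scarcest of the 9, with 3.92 FPKM in the column labelled bbx4-1 and 4.64 FPKM in wild-type, a log2 ratio of −0.20 (SE 0.075). This value is uncertain, because 459 bp of 4CL5 overlap the kinase gene MKK5 on the opposite strand, and the labels do not state whether strand was used in counting. MKK5 stood at 12.22 FPKM in the column labelled bbx4-1 and 12.59 FPKM in wild-type. 4CL1 shares 24 bp with the gene AT1G51670 on the other strand, which was listed at 0.3 FPKM in the column labelled bbx4-1 and 0.36 FPKM in wild-type.

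4CL3, the ligase gene known for its role in flavonoid synthesis, had the highest log2 ratio of the 9 at the pseudocount of 1, while at a pseudocount of 5 it stood at 0.33, under PAL2 at 0.36. 4CL3 (AT1G65060, chromosome 1, 24167202 to 24171635, reverse strand, 7 exons) had 10.64 FPKM in the column labelled bbx4-1 and 7.44 FPKM in wild-type, a ratio of 1.43 (counting interval 1.31 to 1.57) and a log2 ratio of 0.46 (SE 0.059). Of all loci above the minimum, 1.14% had a log2 ratio at least as high. It exceeded the log2 ratio of 4CL1 by 0.42 (interval 0.29 to 0.54), of 4CL2 by 0.58 (0.42 to 0.74) and of 4CL5 by 0.66 (0.47 to 0.85). In level, 4CL3 and 4CL2 were nearly equal in the column labelled bbx4-1, at a 4CL3 to 4CL2 ratio of 1.01, whereas in wild-type that ratio was 0.646. 4CL2 and 4CL5 did not differ in log2 ratio beyond counting error (difference 0.08, interval −0.10 to 0.27). As for the PAL pairs, these intervals cover counting error only, and no share over other pairs of loci was taken.

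**Figure D2:**
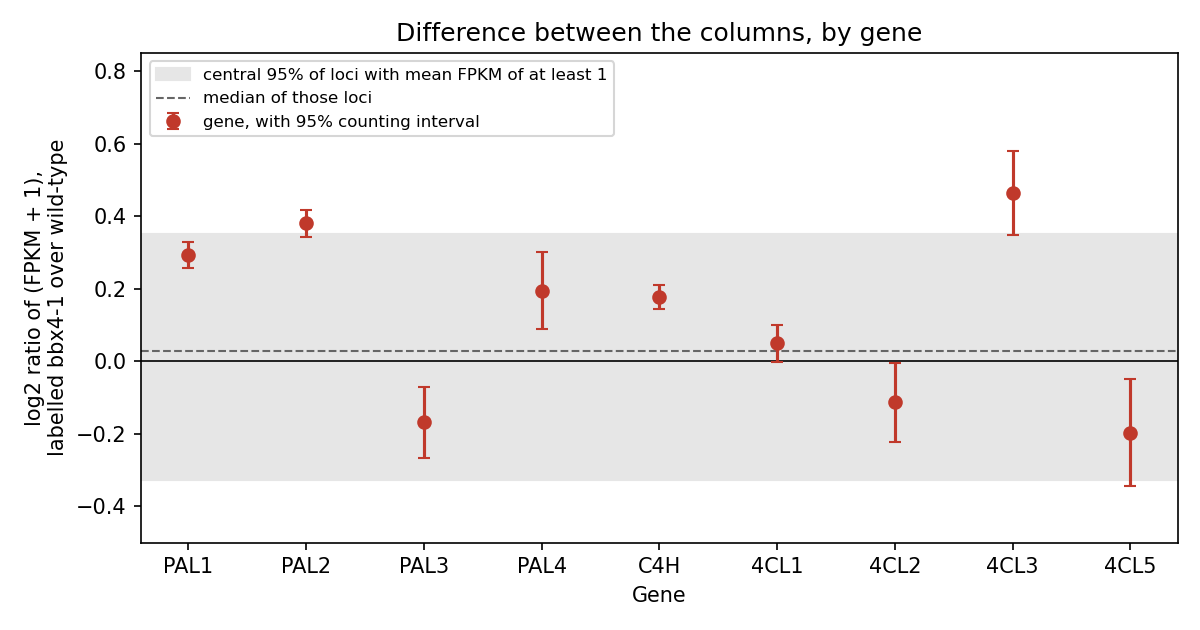
Difference of log2(FPKM + 1) for each gene, column labelled bbx4-1 minus wild-type column, with 95% counting intervals, the median of all loci above the minimum (dashed) and their central 95% (grey, −0.33 to 0.35). PAL2 and 4CL3 lie above the grey band at 0.38 and 0.46, and PAL3, 4CL2 and 4CL5 lie below 0.

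Summed over the genes of each step, the difference was largest for PAL and smallest for 4CL. The 4 PAL genes together had 201.99 FPKM in the column labelled bbx4-1 and 163.77 FPKM in wild-type, a log2 ratio of 0.30 (counting interval 0.28 to 0.33). The single C4H gene was at 0.18 (0.14 to 0.21). The 4CL genes, 4 in number, together had 74.93 FPKM in the column labelled bbx4-1 and 71.7 FPKM in wild-type, a log2 ratio of 0.06 (0.02 to 0.11). After rescaling the columns by the trimmed mean of M values (TMM), the 4CL sum was at 0.03 (−0.01 to 0.07), and with equal nuclear protein-coding sums at 0.04 (−0.001 to 0.083), so that both intervals include 0. Transcript of the PAL step stood at 1.37 times that of C4H in the column labelled bbx4-1 and at 1.26 times in wild-type.

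Within each family, some shares differed between the columns by more than counting error. Counting error was small beside the spread of log2 ratios over loci. At a mean of at least 10 FPKM, the root mean square counting SE was 0.047 and the SD of log2 ratios 0.161. PAL1 and PAL2 together supplied 90.2% of PAL FPKM in the column labelled bbx4-1 and 87.8% in wild-type. PAL3 supplied 5.12% in the column labelled bbx4-1 (counting interval 4.86 to 5.39) and 7.17% in wild-type (6.82 to 7.53). PAL2 supplied 44.9% in the column labelled bbx4-1 (44.4 to 45.5) and 42.4% in wild-type (41.8 to 43.1). The share of PAL1 was 45.2% in the column labelled bbx4-1 (44.6 to 45.8) and 45.4% in wild-type (44.7 to 46.0), intervals that overlap. Within the 4CL family, 4CL1 held 66.5% in the column labelled bbx4-1 (65.5 to 67.5) and 67.1% in wild-type (66.1 to 68.1), which also overlap. 4CL3 supplied 14.2% in the column labelled bbx4-1 (13.5 to 14.9) and 10.4% in wild-type (9.70 to 11.1). 4CL2 had 14.1% in the column labelled bbx4-1 (13.3 to 14.9) and 16.1% in wild-type (15.2 to 16.9).

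**Figure D3:**
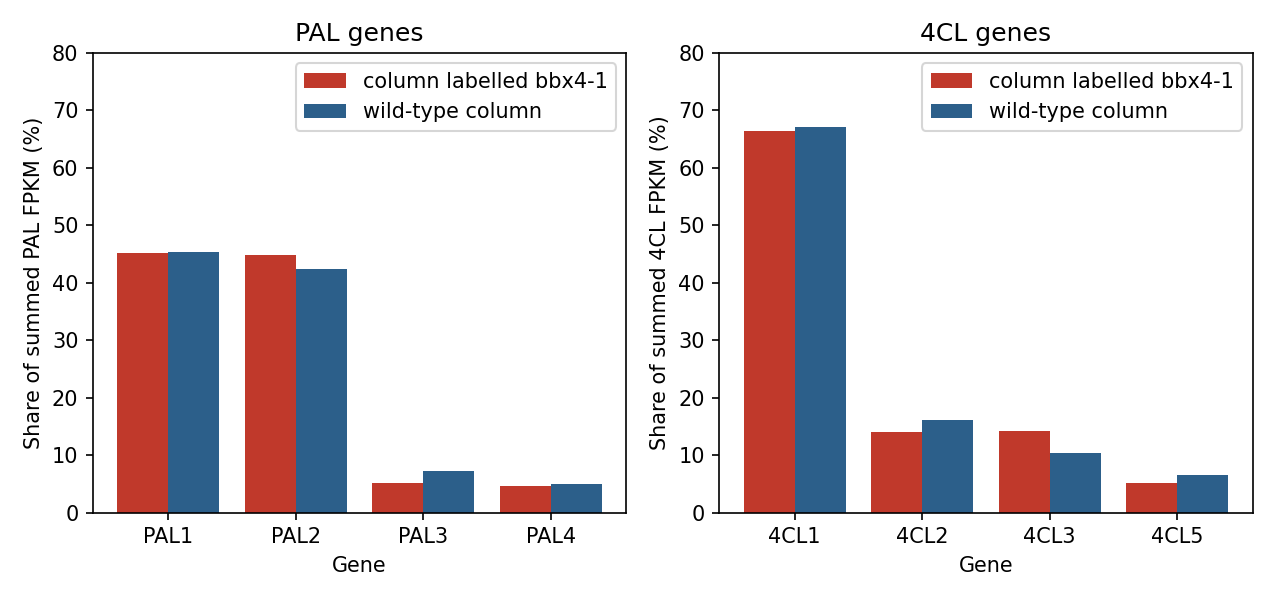
Share of each gene in the summed FPKM of its family, in percent, with the column labelled bbx4-1 on the left of each pair and the wild-type column on the right. The share of 4CL3 is 14.2% in the column labelled bbx4-1 and 10.4% in wild-type, and that of PAL3 5.12% in the column labelled bbx4-1 and 7.17% in wild-type.

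The promoters of the genes with the highest ratios are shown as the 250 bases before the annotated start, read 5′ to 3′ on the strand of the gene from the TAIR10.1 genome. PAL1 (chr2:15560756-15561005) and PAL2 (chr3:19747115-19747364) are set side by side because they are the abundant pair that was higher together, and capitals mark the runs of at least 9 bases that both hold.
PAL1: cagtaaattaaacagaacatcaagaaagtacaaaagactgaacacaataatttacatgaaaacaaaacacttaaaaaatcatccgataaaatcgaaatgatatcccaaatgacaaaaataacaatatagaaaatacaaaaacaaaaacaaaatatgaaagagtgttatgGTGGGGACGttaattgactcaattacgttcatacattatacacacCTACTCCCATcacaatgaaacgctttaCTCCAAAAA
PAL2: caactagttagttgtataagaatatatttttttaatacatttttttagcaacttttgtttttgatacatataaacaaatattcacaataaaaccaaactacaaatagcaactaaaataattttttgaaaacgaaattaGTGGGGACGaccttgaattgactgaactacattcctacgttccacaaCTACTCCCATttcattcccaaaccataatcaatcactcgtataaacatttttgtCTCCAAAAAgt
The 3 shared runs came in the same order in both. GTGGGGACG occurred on either strand in 13 of 27443 nuclear protein-coding promoters of this length (0.0474%), CTACTCCCAT in 9 (0.0328%) and CTCCAAAAA in 196 (0.714%). These counts include PAL1 and PAL2 themselves, from which the runs were picked. The minimum of 9 bases was set after the sequences were seen, and other pairs of the 9 promoters shared as many such runs or more, such as PAL3 and PAL4 with 6. The promoter of 4CL1, a gene that differed little between the columns, shared 3 with PAL1 and 4 with PAL2.

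4CL3 (chr1:24171636-24171885) and 4CL2 (chr3:7457405-7457654), whose log2 ratios differed in sign, both hold AC elements, the class of motif that MYB factors bind in phenylpropanoid promoters, and these are in capitals.
4CL3: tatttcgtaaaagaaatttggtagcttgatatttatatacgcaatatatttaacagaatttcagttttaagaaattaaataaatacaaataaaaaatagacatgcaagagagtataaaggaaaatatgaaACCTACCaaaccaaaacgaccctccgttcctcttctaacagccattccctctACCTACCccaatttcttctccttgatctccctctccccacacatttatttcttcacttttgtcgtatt
4CL2: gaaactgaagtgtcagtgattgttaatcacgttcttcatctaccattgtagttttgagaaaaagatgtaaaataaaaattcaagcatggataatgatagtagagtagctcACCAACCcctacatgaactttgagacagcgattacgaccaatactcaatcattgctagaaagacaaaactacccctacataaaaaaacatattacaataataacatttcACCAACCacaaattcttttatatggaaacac
Searched on both strands, ACCTACC (AC-I) lay in the 4CL3 window at 2 places, starting 120 and 68 bases before the gene start, and ACCAACC (AC-II) in the 4CL2 window, starting 140 and 31 bases before it. Of all promoters, 1.16% held ACCTACC, 2.69% ACCAACC and 2.46% ACCTAAC (AC-III), the last of these in no window of the 9. At least 1 of the 3 elements lay in 6.12% of promoters and in 2 of the 9 windows, those of 4CL3 and 4CL2. The windows of PAL1, PAL2, PAL4 and C4H, also higher by more than the counting interval, held none. Each window ends at the annotated gene start, and bases further upstream or within the gene, untranslated leaders included, were not searched. Absence from a window therefore does not show that a gene lacks AC elements. The G-box CACGTG, present in 6.49% of promoters, was found in the PAL4 window only. These motifs do not overlap one another in the windows, and a match describes letters and not a bound site.

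The genes that supply and serve these steps were read from lists chosen with earlier results of these data known. Of 12 measured genes of phenylalanine supply, from the shikimate pathway to arogenate dehydratase, 11 had log2 ratios above 0 and 7 were higher by more than the counting interval, none lower, with a median of 0.08. Among all loci above the minimum, the shares to set beside these and the following list counts are 59.1% above 0, 24.1% higher and 12.8% lower by the interval, and the median is 0.03. The interval shares are not matched to level, and the interval is narrower for abundant genes, so list counts past it cannot be read as an excess. After TMM rescaling, 9 of the 12 supply genes were above 0 and 5 past the interval. ADT6, an arogenate dehydratase that forms phenylalanine, was highest, with 8.91 FPKM in the column labelled bbx4-1 and 6.3 FPKM in wild-type, a log2 ratio of 0.44 (SE 0.070). ADT5, of the same family, was lowest at −0.04, with 17.94 FPKM in the column labelled bbx4-1 and 18.4 FPKM in wild-type. All 4 partners of C4H were higher by more than the interval, with a median of 0.16, and 3 were after TMM rescaling. The membrane steroid-binding protein MSBP1, a scaffold of the lignin P450 enzymes, was highest at 0.18, and ATR2, a reductase that passes electrons to P450 enzymes, lowest at 0.07.

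Genes for the Kelch F-box proteins, which direct PAL enzymes to degradation, were lower. All 3 measured members were lower by more than the counting interval and at least 1.2-fold, which 4.11% of loci were, with a median of −0.33, and they stayed so by the interval after TMM rescaling. KFB20 had 25.88 FPKM in the column labelled bbx4-1 and 33.71 FPKM in wild-type, a log2 ratio of −0.37 (SE 0.040). KFB50 had 43.43 FPKM in the column labelled bbx4-1 and 54.83 FPKM in wild-type, a log2 ratio of −0.33 (SE 0.033). KFB01 had 11.73 FPKM in the column labelled bbx4-1 and 14.37 FPKM in wild-type, a log2 ratio of −0.27 (SE 0.057). The tables hold transcript levels and no measure of PAL protein.

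Downstream genes were read branch by branch, and no difference between branches was tested. Of 10 monolignol genes, which lead to lignin, 9 were higher by more than the interval and none lower, with a small median of 0.10, and after TMM rescaling 7 were higher and 1 lower. The highest was CAD5, an alcohol dehydrogenase of the last step, with 24.94 FPKM in the column labelled bbx4-1 and 21.27 FPKM in wild-type (log2 ratio 0.22), and the lowest HCT, the acyltransferase at the branch entry, at −0.02. Of 3 measured sinapate ester genes, REF1, an aldehyde dehydrogenase, was highest at 0.15 and SNG1, the sinapoylglucose:malate sinapoyltransferase, lowest at −0.05. Of 5 flavonoid entry genes, 4 were higher by more than the interval, with a median of 0.17, and 2 of them were after TMM rescaling. Flavonol synthase gene FLS1 was highest, with 46.1 FPKM in the column labelled bbx4-1 and 29.06 FPKM in wild-type (0.65), and F3H, flavanone 3-hydroxylase, lowest at −0.05. CHS, the most abundant of the 5, had 140.23 FPKM in the column labelled bbx4-1 and 133.77 FPKM in wild-type (0.07).

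**Figure D4:**
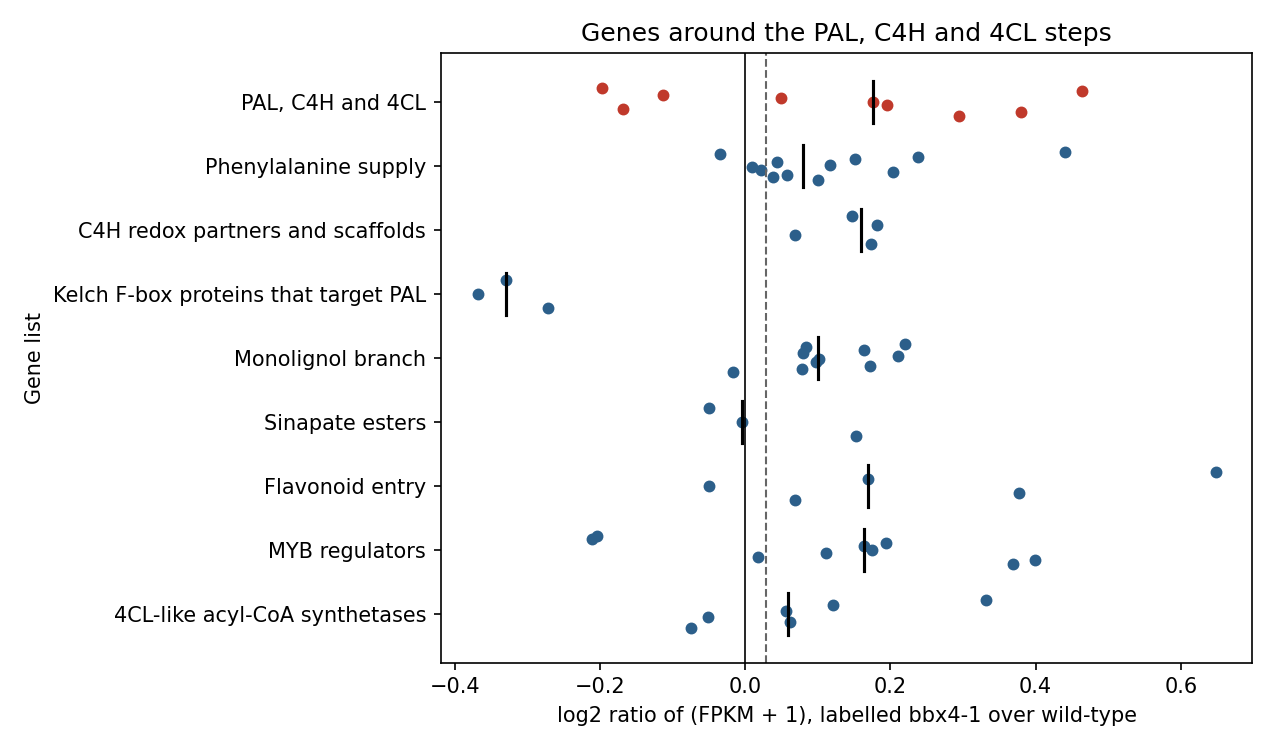
Difference of log2(FPKM + 1), column labelled bbx4-1 minus wild-type column, for each gene above the minimum in each list, with the list median as a black bar and the median of all loci as a dashed line at 0.03. The Kelch F-box genes lie between −0.37 and −0.27, and the PAL, C4H and 4CL genes spread from −0.20 to 0.46.

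Of 9 measured MYB regulators, 7 had log2 ratios above 0 (6 after TMM rescaling), and MYB4 and MYB7, 2 of 9, were higher by more than the interval, a share near the 24.1% of all tested loci. After TMM rescaling, 2 were higher and 1 lower by that margin. MYB4, a repressor of C4H, had 17.8 FPKM in the column labelled bbx4-1 and 13.56 FPKM in wild-type, a log2 ratio of 0.37 (SE 0.057). Its relative MYB7, the highest, had 12.42 FPKM in the column labelled bbx4-1 and 9.18 FPKM in wild-type, a log2 ratio of 0.40 (SE 0.072). The lowest was MYB46, a regulator of secondary walls, at −0.21, within its counting interval. Of 6 measured 4CL-like acyl-CoA synthetases, which resemble 4CL in sequence, only AT1G20490 was higher by more than the interval, at 0.33 (2.61 FPKM in the column labelled bbx4-1 and 1.87 FPKM in wild-type), and OPCL1, an enzyme of jasmonate synthesis, was lowest at −0.08. After TMM rescaling, 1 of the 6 was higher and 1 lower by that margin.

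Markers of cell types were read beside these genes. Of 7 measured genes of lignifying xylem and secondary walls, none was higher and 2 were lower by more than the counting interval, with a median of −0.01. The 8 markers of that list, VND7 included, summed to 117.68 FPKM in the column labelled bbx4-1 and 118.8 FPKM in wild-type. The 3 epidermal markers summed to 277.74 FPKM in the column labelled bbx4-1 and 280.86 FPKM in wild-type. That sum joins PDF1, lower at −0.12, and FDH, higher at 0.04, each by more than the interval, with ATML1 neither. After TMM rescaling FDH was no longer past it. The 3 endodermal markers summed to 33.92 FPKM in the column labelled bbx4-1 and 31.03 FPKM in wild-type. Most of this was CASP1, with 30.66 FPKM in the column labelled bbx4-1 and 27.95 FPKM in wild-type. Leaf markers had a median of −0.04 and went both ways, each by more than the counting interval. LHCB1.1 was at 0.085, RBCS1A at −0.038 and GAPB at −0.183. The 3 root markers went both ways. The iron transporter gene IRT1 had 128.71 FPKM in the column labelled bbx4-1 and 170.23 FPKM in wild-type, a log2 ratio of −0.40. SCR, a regulator of root patterning, had 17.55 FPKM in the column labelled bbx4-1 and 14.99 FPKM in wild-type, a log2 ratio of 0.21, and COBL9, a root hair gene, was at −0.01. Their part in the values above was not tested.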

How the data were processed

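The deposited values are FPKM, 1 column a genotype; per the series design text, the authors combined 3 biological replicates of each. Per the submitters' processing notes, HISAT2 2.1.0, edgeR 3.0.8 and the build TAIR10 were used, in roles that the notes do not give, and neither the counter, strand use nor filters are stated there. Sample descriptions name the table that holds the BBX4 column as that of bbx4-1. The members and gene lists were chosen with earlier results of these data known.

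Differences are log2(FPKM + 1), bbx4-1 column minus wild-type column, over 18931 loci with mean FPKM of at least 1, and understate changes of low genes. No test was run. Approximate fragments per gene came from FPKM times exon length (TAIR10.1 RefSeq annotation, 32835 of 33602 loci matched), divided by the median product for 18 (bbx4-1) and 20 (wild-type) transfer RNA genes of at most 75 bp that appeared to hold 1 fragment. The counting SE and 95% interval (1.96 SE; exact Clopper-Pearson for FPKM ratios) follow from these and omit variation between seedlings and PCR copies. The gene lengths behind the authors' FPKM are not stated. Intervals were checked only on simulated fragments with counting error alone and with known depth and lengths. That check covers neither the depth estimate, the authors' gene lengths nor other variation in these columns. From each list, the genes with the highest and lowest log2 ratio were named, with others where their role needed it, and entries whose name the annotation did not hold were left out. Sequences come from the RefSeq TAIR10.1 genome, and coding alignments from Biopython 1.88. Python 3.11.15, numpy 2.4.6, pandas 2.3.3 and scipy 1.17.1 were used. Alternatives were pseudocounts of 0.1 and 5, TMM rescaling, equal nuclear protein-coding sums, no filter and a minimum of 5 FPKM.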

Additional observations from a re-analysis of the deposited data

How the results depend on the processing

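All 9 genes kept the sign of their log2 ratio under the pseudocounts of 0.1 and 5, TMM rescaling, equal nuclear protein-coding sums, no filter and a minimum mean FPKM of 5, the last of which left out 4CL5. TMM rescaling lowered log2 ratios by up to 0.032, and by less for scarce genes because of the pseudocount. It put the summed PAL log2 ratio at 0.27 and left 2 genes past 1.2-fold in place of 3. PAL1 was then at 0.263, equal to the threshold at that rounding. The pseudocount of 5 put 4CL3 at 0.33, under PAL2 at 0.362. Over all loci, the number past 2-fold was 66 at a pseudocount of 0.1, 9 at 5 and 18 with the minimum of 5 FPKM, in place of 28. The number past 1.2-fold was 701 at a pseudocount of 5 and 1004 with the minimum of 5 FPKM, in place of 1752. These moves follow from the construction of each setting. Weighting by exon length put 4CL1 at 69.9% of 4CL in the bbx4-1 column and 70.5% in wild-type, and kept each gene's order between the columns. No paired analysis was possible because each genotype has 1 combined column with no replicate numbers. For the same reason no replicate could be left out in turn. Depth limits 4CL5 most, with about 454 fragments in the bbx4-1 column and 519 in wild-type.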
